A study of Mus musculus with 14 samples.

Results

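The enzymes of phase II metabolism join a polar group to drugs, toxins, hormones and bile pigments. The genes described here were chosen by symbol: protein-coding mouse genes whose symbol starts with Gsta, Gstk, Gstm, Gsto, Gstp, Gstt, Gstz, Mgst, Ugt1, Ugt2, Ugt3 or Sult. The count tables listed 47729 genes and 67 of them fitted these prefixes. Of the 67, 47 had 10 or more counts in 3 or more libraries and were kept, a minimum that 18096 of all listed genes met. They comprise 23 of 25 glutathione transferases, 15 of 21 UDP-glycosyltransferases and 9 of 21 sulfotransferases. Just inside the minimum lay Gstp2, Ugt2a3 and Sult6b2, each with 10 counts or more in 5 libraries, and just outside it lay Gstm3 and Sult2a3, each with 1 such library.

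Glutathione transferases attach the thiol tripeptide glutathione to reactive electrophiles, and some bind bilirubin or reduce lipid peroxides. UDP-glycosyltransferases move a sugar, mostly glucuronic acid, from a UDP-sugar to alcohols, acids and amines, and sulfotransferases move sulfate from the donor PAPS. In the kidney many of these enzymes are known from the proximal tubule, where conjugates are also taken up, processed and secreted.

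Messenger RNA of mouse kidney was sequenced in 14 libraries. WT_normal (3 libraries) came from untreated wild-type kidney and WT_UUO (4 libraries) from wild-type kidney 7 days after unilateral ureteral obstruction, the closure of the ureter of 1 kidney, a model of kidney fibrosis. SMOC2_normal (3 libraries) and SMOC2_UUO (4 libraries) are the same states in mice labelled SMOC2 transgenic. The sources used here do not give the promoter of the transgene or the strain and age of these mice. A treatment protocol attached to the samples speaks instead of folic acid in Balb/c mice, and the groups follow the genotype and treatment labels. Smoc2 RNA was not called higher in libraries labelled transgenic: it stood at 25.2 ± 16.1 CPM (SD, n = 3) in WT_normal and 21.8 ± 9.66 (n = 3) in SMOC2_normal (adjusted p = 0.85), and at 147 ± 11.4 (n = 4) in WT_UUO and 96.1 ± 18.5 (n = 4) in SMOC2_UUO (adjusted p = 0.389). The genotype is therefore written as a label throughout.

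Levels are CPM, the usual depth-scaled count, taken over library sizes that were adjusted with edgeR's TMM factors, and total counts ran from 19483994 to 30033405 per library. Changes are log2 fold changes of edgeR's quasi-likelihood fit, ± their SE, with p-values adjusted over the 17926 genes tested. A gene is said to have risen or fallen where its adjusted p was under 0.05. Since the labels do not tie libraries to separate animals, each p-value reflects only library-to-library spread, part of which may be technical.

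The widest contrast between near-identical genes lay in the UGT2B cluster on chromosome 5, so upstream sequences of genes there are shown first. Each is the 250 bases before the RefSeq transcription start (GRCm38.p6), 5′ to 3′ on the gene's strand. Capitals mark a match to TGANTCA, a permissive form of the AP-1 element in which N is any base, searched on both strands. Ugt2b37 and Ugt2b5 rose with obstruction, Ugt2b38 was not called, and Ugt2b34 fell.
Ugt2b37, chr5:87254789-87255038, minus strand: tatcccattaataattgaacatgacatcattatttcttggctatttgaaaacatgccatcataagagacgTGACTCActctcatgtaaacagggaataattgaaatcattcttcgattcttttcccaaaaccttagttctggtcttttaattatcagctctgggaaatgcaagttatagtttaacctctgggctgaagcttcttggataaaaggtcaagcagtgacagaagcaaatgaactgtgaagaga
Ugt2b5, chr5:87140341-87140590, minus strand: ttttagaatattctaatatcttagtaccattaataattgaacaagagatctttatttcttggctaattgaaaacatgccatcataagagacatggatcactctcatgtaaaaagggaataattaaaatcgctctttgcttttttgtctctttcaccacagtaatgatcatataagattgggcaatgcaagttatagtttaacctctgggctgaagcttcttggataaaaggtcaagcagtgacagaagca
Ugt2b38, chr5:87424204-87424453, minus strand: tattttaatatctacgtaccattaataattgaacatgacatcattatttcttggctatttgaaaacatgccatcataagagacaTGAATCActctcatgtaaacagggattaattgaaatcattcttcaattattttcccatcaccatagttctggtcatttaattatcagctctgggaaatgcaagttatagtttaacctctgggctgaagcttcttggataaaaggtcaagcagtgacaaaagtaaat
Ugt2b34, chr5:86906938-86907187, minus strand: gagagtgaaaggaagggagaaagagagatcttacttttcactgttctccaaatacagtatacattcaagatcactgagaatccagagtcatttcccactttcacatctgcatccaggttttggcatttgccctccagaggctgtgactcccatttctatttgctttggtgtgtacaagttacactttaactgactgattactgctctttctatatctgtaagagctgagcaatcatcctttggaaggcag
The upstream sequences of Ugt2b37 and Ugt2b38 were 94.1% identical over 238 aligned bases, and their longest protein-coding transcripts 93.2% identical. Ugt2b5 and Ugt2b38 were 85.1% identical over 249 upstream bases and 95.5% in the transcript, while Ugt2b34 and Ugt2b37 were 51.6% identical upstream and 65.2% in the transcript. The match to this permissive form read TGACTCA in Ugt2b37, 180 bases before the start, and TGAATCA in Ugt2b38, 166 bases before the start. Ugt2b5 and Ugt2b34 had no match in this window. The permissive form was found in 6.75% of 32851 mouse upstream sequences of the same length, and a match describes these letters only.

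Most conjugation genes fell in the obstructed kidney and a small set rose. In wild type, 30 of 47 fell and 9 rose, beside 29.8% of all tested genes that fell and 31.3% that rose. Under the transgenic label 28 fell and 10 rose, beside 30.4% and 32.5% of all tested genes. The median log2 change over the 47 was -1.07 in wild type and -0.98 under the transgenic label, beside 0.05 and 0.04 over all tested genes. In wild type 25 genes fell and 6 rose at least 2-fold, and under the transgenic label 22 fell and 7 rose at least 2-fold. The genes that rose at least 2-fold include Gstp3, Ugt2b5 and Sult4a1 in both comparisons and Mgst2 in wild type. These were kept only through obstructed libraries, as described below, and no share of all tested genes at 2-fold is given. The 4 obstructed and 3 normal wild-type libraries did not overlap for any of the 30 genes that fell, and overlapped for Sult6b1 among the 9 that rose. Under the transgenic label the libraries overlapped for Gstm2 among the genes that fell and for Gsto1 among those that rose. Only genes already called are described here, so the lack of overlap is no added support. The share of all tested genes without such overlap was not computed.

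The minimum of 10 counts in 3 libraries was met by 40 of the 47 genes in normal and in obstructed libraries alike. The other 7 (Gstp2, Gstp3, Mgst2, Ugt2a3, Ugt2b5, Sult4a1 and Sult6b2) did not reach it in normal libraries alone and were kept only through obstructed ones, so the minimum favored a rise in them. They make up 4 of the 9 genes that rose in wild type and 3 of the 10 under the transgenic label, and their values are given as a description. Among the 40 genes, 30 fell and 5 rose in wild type, and 28 fell and 7 rose under the transgenic label.

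The 2 obstruction comparisons share no library, and no gene was called in opposite directions. In both, 28 genes fell and 8 rose (Gstp3, Mgst1, Ugt2b37, Ugt2b5, Sult2b1, Sult4a1, Sult5a1 and Sult6b1). Of the genes that rose, Gstp3, Ugt2b5 and Sult4a1 were kept only through obstructed libraries. The share of all tested genes called the same way in both was not computed, so nothing is read from these counts. Neither comparison called 6 genes: Gstp2, Ugt1a6b, Ugt1a7c, Ugt2a3, Ugt2b38 and Sult6b2. Mgst2 rose and Ugt1a8 and Sult1a1 fell with a call in wild type, and Gstm6 and Gsto1 rose with a call under the transgenic label. None of these 5 differences between the labels was called by the interaction test given further on. That test called 0 of the 17926 tested genes, so it cannot show that the labels were alike here.

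**Figure D1:**
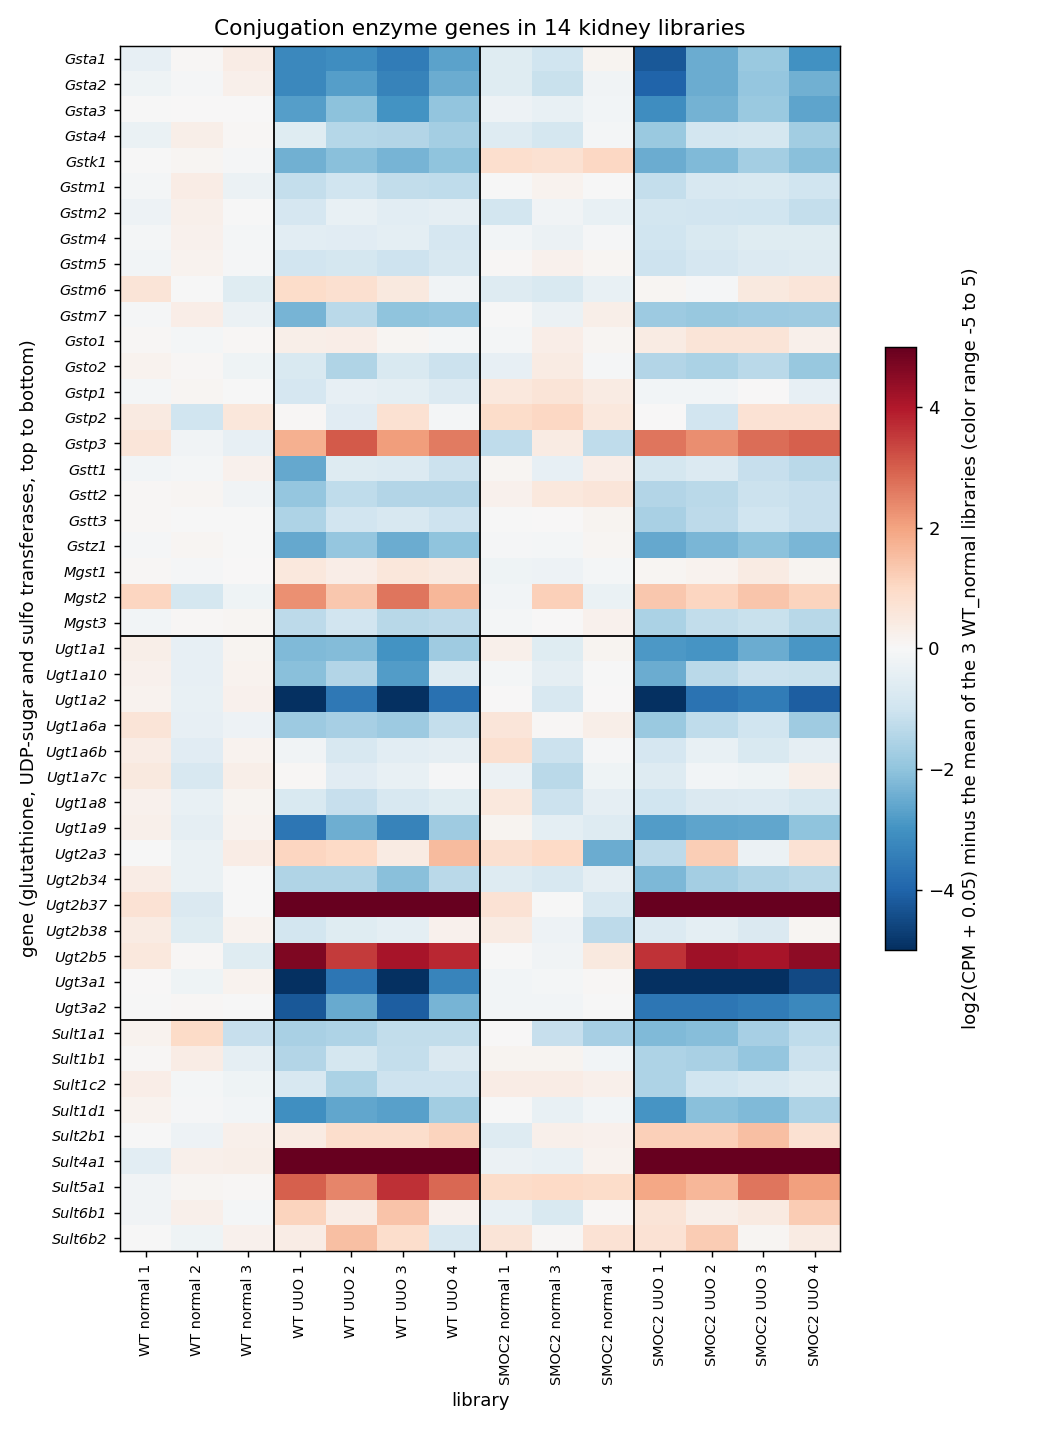
Level of the 47 genes (rows) in the 14 libraries (columns) as log2(CPM + 0.05) minus the mean of the WT_normal libraries, with blue for lower and red for higher and colors limited to -5 and 5. Both obstructed groups show a like block of lowered genes, and Ugt2b37, Ugt2b5 and Sult4a1 stand out in red in all 8 obstructed libraries.

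Summed over the 47 genes, the level was 5989 ± 90.8 CPM in WT_normal (SD, n = 3) and 1715 ± 226 in WT_UUO (n = 4), or 28.6% of the normal mean. It was 5710 ± 397 CPM in SMOC2_normal and 1793 ± 246 in SMOC2_UUO, or 31.4%. UDP-glycosyltransferases kept 14.6% of their normal sum in wild type and 14.8% under the transgenic label, sulfotransferases 31% and 35%, and glutathione transferases 40.1% and 43.2%. These percentages depend on the TMM factors. Without the factors, the 47 genes held 0.492% to 0.509% of total counts in WT_normal libraries and 0.179% to 0.219% in WT_UUO. They held 0.434% to 0.489% in SMOC2_normal and 0.166% to 0.229% in SMOC2_UUO. In bulk tissue, fewer cells of a type and less RNA per cell cannot be told apart.

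All 15 proximal tubule markers fell in both comparisons, with a median log2 change of -2.58 in wild type and -2.90 under the transgenic label. The summed proximal tubule level lay between 39210 and 53530 CPM in WT_normal and between 3127 and 7817 in WT_UUO, and between 43690 and 52350 in SMOC2_normal and between 4923 and 6013 in SMOC2_UUO. Of 8 loop of Henle and distal tubule markers 7 fell in wild type (median -2.34) and 7 under the transgenic label (median -2.65). Of 8 collecting duct markers 7 fell and 1 rose in wild type (median -1.47), and 7 fell and 1 rose under the transgenic label (median -1.68). All 8 fibroblast markers rose in both comparisons, and of 8 macrophage markers 8 rose in wild type and 7 under the transgenic label. The 7 urothelial markers summed to 314 CPM in WT_UUO library 1 and to between 21.6 and 67 in the other WT_UUO libraries. They summed to 157 CPM in SMOC2_UUO library 2 and to between 42.3 and 51.5 in the other libraries of that group. The 6 liver markers summed to 78.6 CPM in SMOC2_normal replicate 3 and to at most 19.2 in every other library. No marker of these lists was at 0 in all libraries, and their part in the results was not tested. Without WT_UUO replicate 1 the wild-type counts were 30 lower and 8 higher, and without SMOC2_normal replicate 3 the counts under the transgenic label were 29 lower and 9 higher. Without SMOC2_UUO replicate 2 they were 28 lower and 9 higher.

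**Figure D2:**
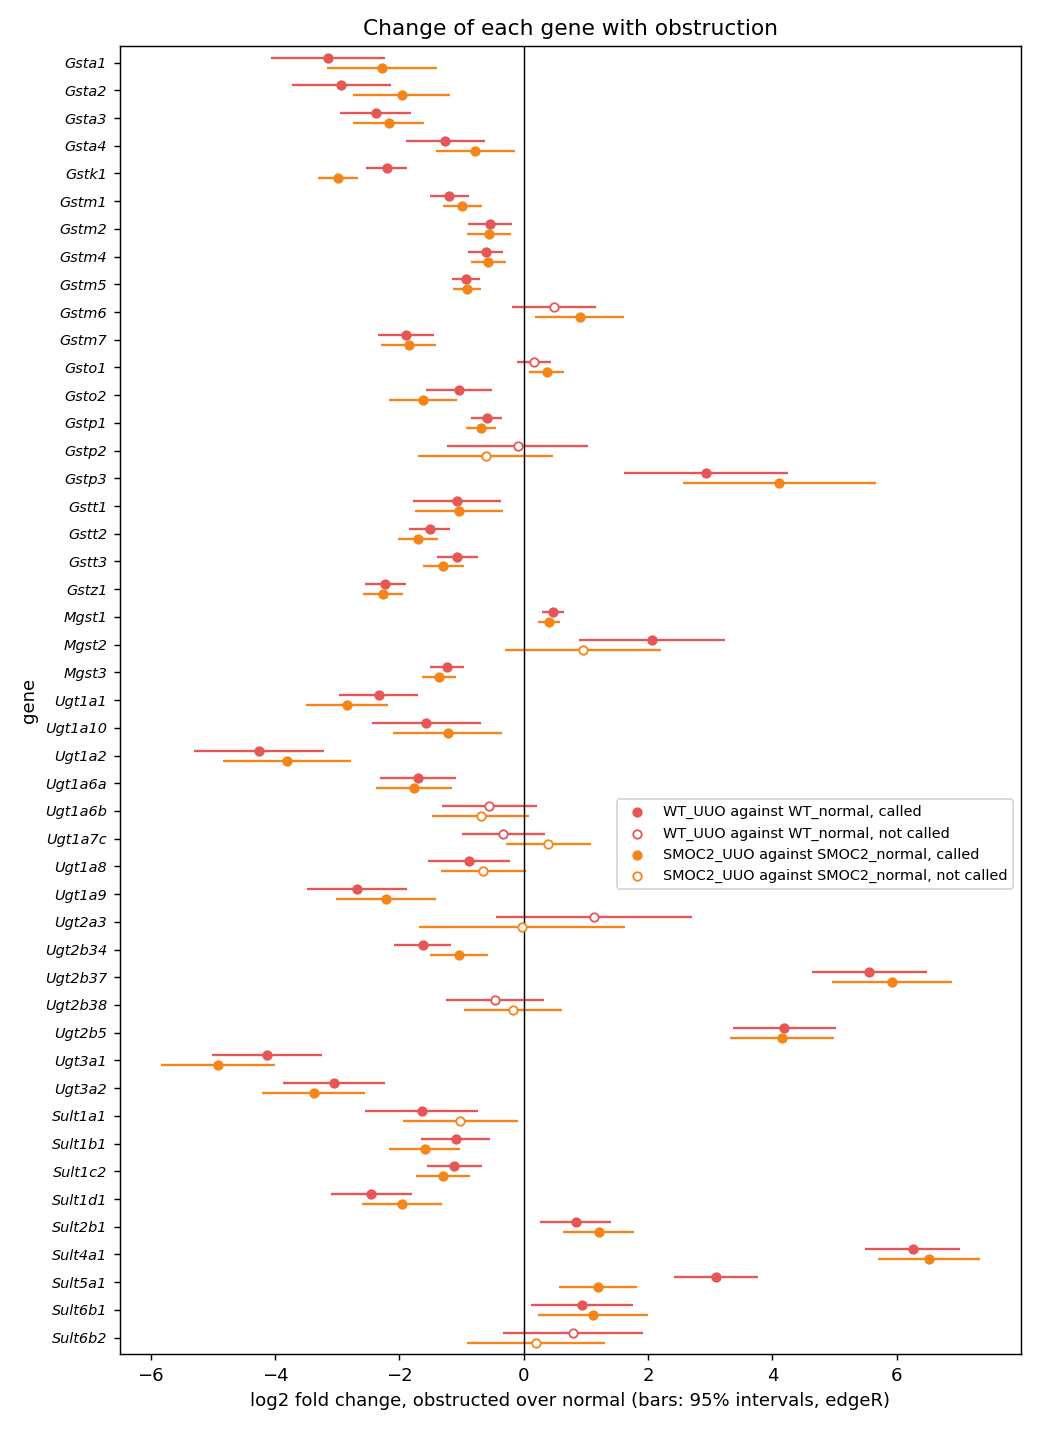
Log2 fold change with obstruction of each gene (rows) with its 95% interval from edgeR, in wild type and under the transgenic label; filled points passed an adjusted p of 0.05 and open points did not. Sult4a1, Ugt2b37 and Ugt2b5 lie far to the right in both comparisons, and Ugt1a2 and Ugt3a1 far to the left.

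The UGT3 enzymes, which use UDP-sugars other than UDP-glucuronic acid, both fell steeply. Ugt3a2 (chr15:9335550-9370955, plus strand) had the highest mean CPM of the 47 genes in WT_normal: 1276, 1371 and 1286 CPM by library. It stood at 68.5, 229.9, 75.6 and 262 CPM in WT_UUO. Ugt3a2 stood at 1180, 1184 and 1303 CPM in SMOC2_normal and 108, 107, 115 and 142 in SMOC2_UUO. All obstructed libraries lay below all normal ones, and the changes were -3.05 ± 0.38 (adjusted p = 9.59e-06) in wild type and -3.38 ± 0.39 (adjusted p = 3.69e-06) under the transgenic label. WT_UUO libraries 2 and 4 were the high ones of their group, and their proximal tubule sums were also higher, at 7817 and 6875 CPM against 3127 and 3387. The part of that difference in the result was not tested.

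Its neighbour Ugt3a1 (chr15:9276888-9315032, plus strand) stood at 184, 158 and 205 CPM in WT_normal and 4.63, 14.6, 4.31 and 18.3 in WT_UUO. It stood at 165, 171 and 186 CPM in SMOC2_normal and 5.6, 5.75, 3.85 and 7.91 in SMOC2_UUO. The groups did not overlap, and Ugt3a1 fell with a log2 change of -4.13 ± 0.41 (adjusted p = 1.1e-06) and -4.92 ± 0.43 (adjusted p = 2.98e-07). The longest transcripts of the pair were 91.5% identical, and 7.01% of the 50-base windows of Ugt3a2 and 7.6% of those of Ugt3a1 occur in transcripts of another gene.

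The UGT1A genes on chromosome 1 glucuronidate bilirubin, phenols and many drugs, and each joins a first exon of its own to exons that all of them share. In the annotation only 17.3% (Ugt1a1) to 49.7% (Ugt1a6a) of a kept gene's exon length is not shared with another gene. Overlap with genes on either strand was counted, here and in all values per kilobase of unshared exon. Counting only genes on the same strand, the unshared length is 913 instead of 385 bases in Ugt1a1 and 949 instead of 809 in Ugt1a10. Their counts therefore depend on how shared reads were assigned, a setting not given in the sources used here. Of 8 kept genes 6 fell in wild type and 5 under the transgenic label, and none was called higher in either. Beside them, 29.8% of all tested genes fell and 31.3% rose in wild type, and 30.4% and 32.5% under the transgenic label. Ugt1a2 (chr1:88200601-88218997, plus strand) carried most of the family in normal kidney, with 746, 521 and 771 CPM in WT_normal and 679.6, 381 and 685 in SMOC2_normal. It stood at 19.9, 56.2, 15.9 and 49.9 CPM in WT_UUO and 16.5, 51.6, 59.8 and 38.8 in SMOC2_UUO. The groups were far apart in both comparisons, with changes of -4.26 ± 0.49 (adjusted p = 4.04e-06) and -3.80 ± 0.48 (adjusted p = 9e-06).

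Ugt1a1, the enzyme that conjugates bilirubin, fell with a log2 change of -2.33 ± 0.29 (adjusted p = 1.01e-05) in wild type and -2.85 ± 0.31 (adjusted p = 2.09e-06) under the transgenic label. Its level was low throughout, between 2.96 and 4.89 CPM in WT_normal and between 0.46 and 1.11 in WT_UUO. Ugt1a9, a broad phenol and drug conjugator, lay between 9.61 and 15.6 CPM in WT_normal and between 1.01 and 3.76 in WT_UUO, and fell with a log2 change of -2.68 ± 0.38 (adjusted p = 2.78e-05) and -2.21 ± 0.37 (adjusted p = 0.000142). Ugt1a10 and Ugt1a6a also fell in both comparisons, with changes between -1.77 and -1.22. The call of Ugt1a10 under the transgenic label was lost without SMOC2_normal replicate 4 (adjusted p = 0.0539).

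Ugt1a7c was not called in either comparison. It stood at 39.6, 16.3 and 34.4 CPM in WT_normal and 28.9, 19, 21.6 and 26.9 in WT_UUO. It stood at 23.2, 11 and 24.2 CPM in SMOC2_normal and 17.9, 25.5, 24.4 and 34.9 in SMOC2_UUO. The groups overlapped in both comparisons, with changes of -0.32 (95% interval -0.99 to 0.34) and 0.40 (-0.29 to 1.09). Per kilobase of unshared exon, Ugt1a2 made up 86.4% ± 0.992 of the UGT1A sum in WT_normal (SD, n = 3) and 44.7% ± 10.3 in WT_UUO (n = 4). Over the same groups the share of Ugt1a7c was 1.74% ± 0.426 and 17.6% ± 8.43, and that of Ugt1a10 7.9% ± 0.277 and 26.6% ± 5.96. The Ugt1a2 share was 86.2% ± 1.61 in SMOC2_normal and 47.8% ± 8.19 in SMOC2_UUO. The larger shares of Ugt1a7c and Ugt1a10 thus came with no called change in the level of the former and a fall in that of the latter. Ugt1a6b and Ugt1a6a have transcripts 98.9% identical, and 79.8% of the 50-base windows of Ugt1a6b occur in other genes, so its values are uncertain.

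**Figure D3:**
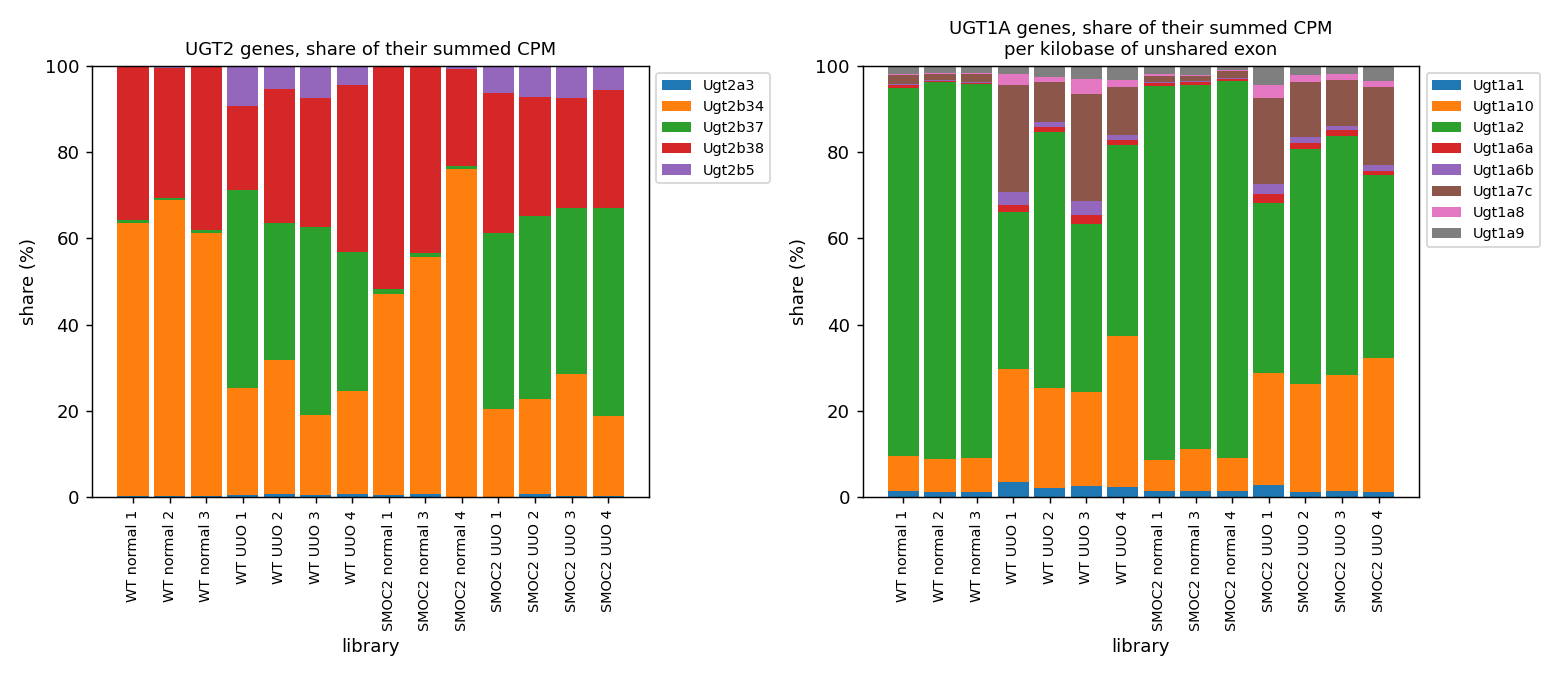
Share in each library (columns) of the summed CPM of 5 UGT2 genes and of the summed CPM per kilobase of unshared exon of 8 UGT1A genes. Ugt2b37 makes up at most 1.2% of the UGT2 sum in any normal library and 31.8% to 48.3% in the obstructed libraries, and the Ugt1a2 share is smaller in every obstructed library than in any normal one.

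The UGT2 enzymes glucuronidate steroids, bile acids and drugs, and their sum hid opposite changes of its members. The 5 kept genes summed to 109 ± 29.6 CPM in WT_normal and 93 ± 14.9 in WT_UUO, and to 76.7 ± 15.3 in SMOC2_normal and 98.7 ± 31.4 in SMOC2_UUO, with overlapping libraries in both comparisons. All lie in a 702 kb stretch of chromosome 5 that holds 13 protein-coding genes with the chosen prefixes, 7 of them kept.

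Ugt2b37 (chr5:87240493-87254804, minus strand) stood at 1.15, 0.391 and 0.662 CPM in WT_normal and 44.9, 24.4, 37.5 and 35.9 in WT_UUO. It stood at 1.13, 0.666 and 0.365 CPM in SMOC2_normal and 28.9, 40.1, 32.9 and 69.2 in SMOC2_UUO. Every obstructed library lay far above every normal one, and Ugt2b37 rose by 5.56 ± 0.43 (adjusted p = 1.36e-07) in wild type and 5.92 ± 0.45 (adjusted p = 9.38e-08) under the transgenic label. Ugt2b5 (chr5:87124960-87140318, minus strand) stood at 0.485, 0.335 and 0.195 CPM in WT_normal and 9.23, 4.17, 6.4 and 5 in WT_UUO. Its levels were 0.313, 0.278 and 0.469 CPM in SMOC2_normal and 4.45, 6.85, 6.4 and 8.08 in SMOC2_UUO. The groups of Ugt2b5 were again apart, with fitted rises of 4.19 ± 0.38 (adjusted p = 5.45e-07) and 4.16 ± 0.39 (adjusted p = 5.88e-07), though it is among the genes kept only through obstructed libraries.

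Ugt2b38 (chr5:87409942-87424203, minus strand), whose upstream sequence printed above is the nearest to that of Ugt2b37 among the 3 compared with it, was not called. Its level was 48.9, 24 and 41.9 CPM in WT_normal and 19.1, 23.8, 25.9 and 43 in WT_UUO. It was 48.3, 30.6 and 14.7 CPM in SMOC2_normal and 22.9, 26.3, 22 and 39.3 in SMOC2_UUO. The libraries overlapped and the changes were -0.46 (95% interval -1.24 to 0.33) and -0.17 (-0.97 to 0.62). Of 50-base windows, 18.3% of Ugt2b37, 37.4% of Ugt2b38 and 41.7% of Ugt2b5 occur in transcripts of other genes, so reads of these genes could be split or dropped.

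Ugt2b34 (chr5:86889767-86906937, minus strand), with 1.44% of such windows, fell. It stood at 87.6, 54.3 and 67.4 CPM in WT_normal and 24.3, 23.9, 16 and 26.6 in WT_UUO. Its levels were 43.9, 39.1 and 49.5 CPM in SMOC2_normal and 14.3, 21.1, 24.3 and 26.4 in SMOC2_UUO. No libraries overlapped, and the changes were -1.62 ± 0.21 (adjusted p = 1.5e-05) and -1.04 ± 0.21 (adjusted p = 0.000738). As a share of the UGT2 sum, Ugt2b37 made up 0.641% ± 0.171 in WT_normal and 38.3% ± 7.36 in WT_UUO, and 0.899% ± 0.321 in SMOC2_normal and 42.5% ± 4.21 in SMOC2_UUO. The share of Ugt2b34 was 64.3% ± 3.88 in WT_normal and 24.6% ± 5.15 in WT_UUO, and 59.3% ± 15.2 in SMOC2_normal and 22.3% ± 4.31 in SMOC2_UUO. The kept gene Ugt2a3 was near the count minimum, and its changes of 1.13 (95% interval -0.45 to 2.71) and -0.03 (-1.68 to 1.63) were not called.

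**Figure D4:**
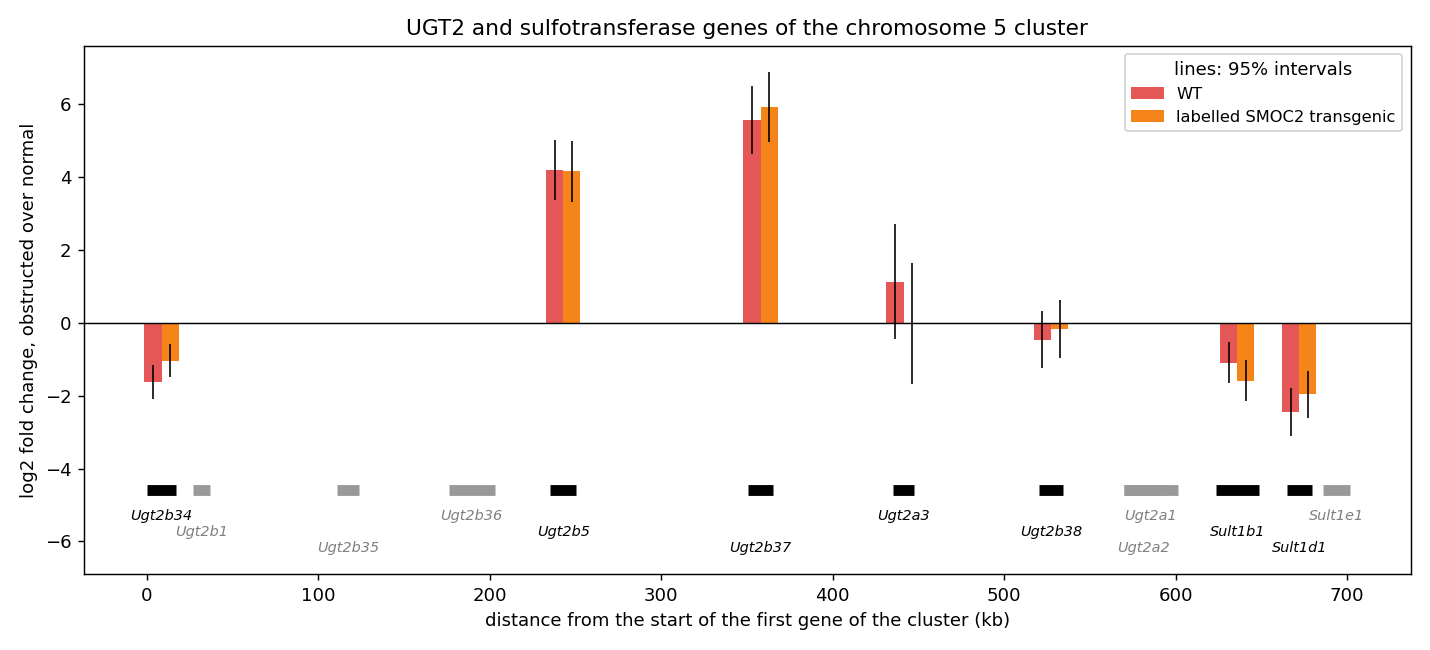
Log2 fold change with obstruction, with 95% intervals, of the 7 kept genes of the chromosome 5 cluster by their distance in kb along it; genes that did not meet the count minimum are drawn in grey. Ugt2b5 and Ugt2b37 point up, and Ugt2b34, Sult1b1 and Sult1d1 point down.

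**Figure D5:**
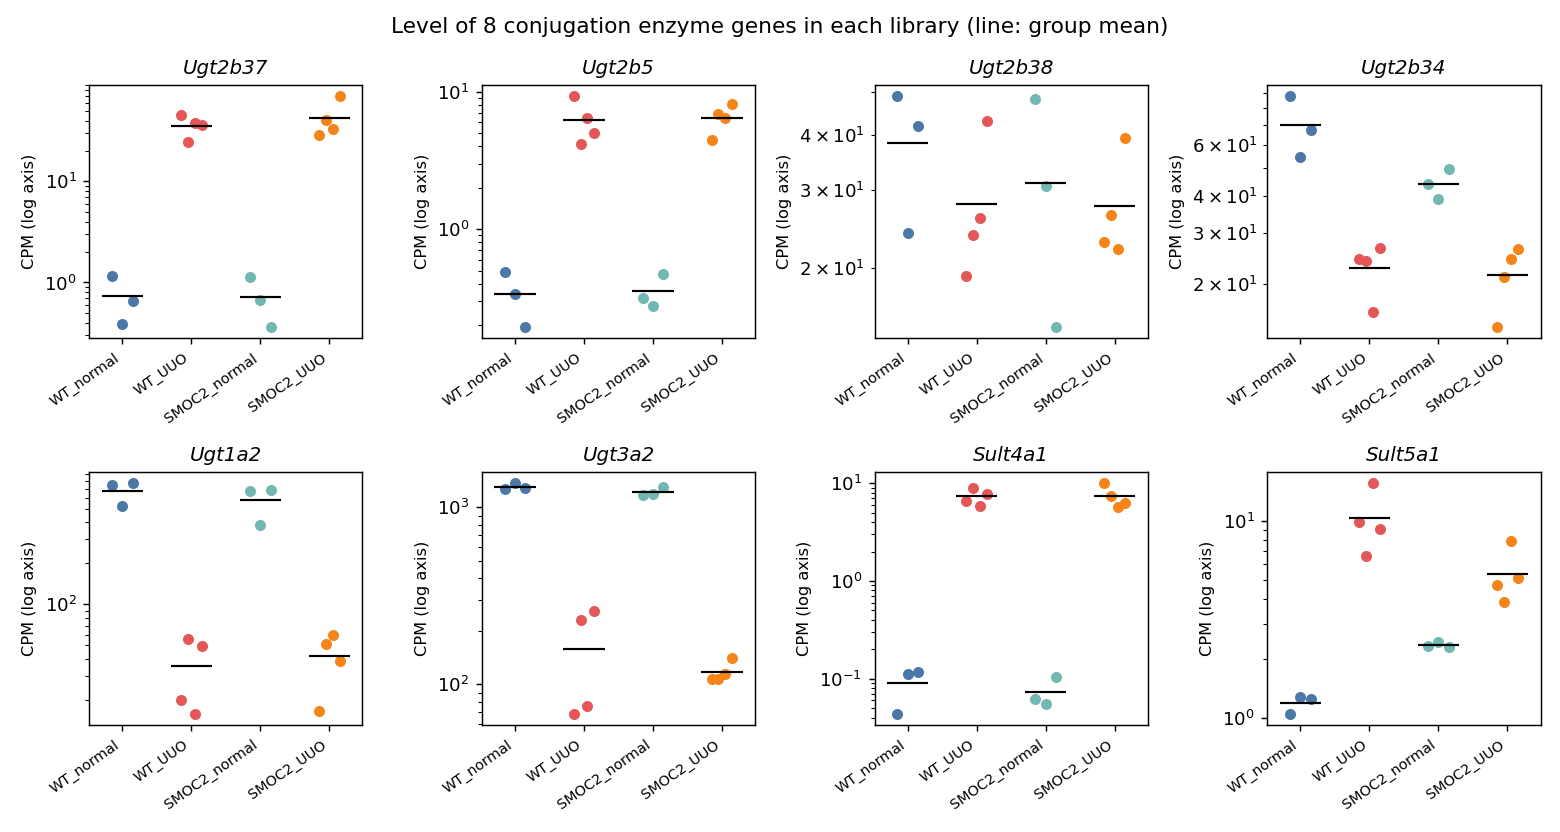
CPM on a log axis of 8 genes in each library (points) with the group mean (line), for the 4 groups. The Ugt2b37 points of the obstructed libraries lie far above those of the normal ones, while the Ugt2b38 points of all groups overlap.

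Of the 9 kept sulfotransferases 4 fell and 4 rose in wild type, and 3 fell and 4 rose under the transgenic label. Of all tested genes 29.8% fell and 31.3% rose in wild type, and 30.4% and 32.5% under the transgenic label, and nothing is read from counts over 9 genes. Sult1d1, which sulfates catecholamines and other phenols, stood at 535, 454 and 428 CPM in WT_normal and 56.7, 77.2, 72.4 and 139.7 in WT_UUO. It stood at 468, 368 and 425 CPM in SMOC2_normal and 60.9, 109, 101 and 161 in SMOC2_UUO. The groups were apart, and Sult1d1 fell with a log2 change of -2.45 ± 0.30 (adjusted p = 9.04e-06) and -1.96 ± 0.30 (adjusted p = 5.93e-05). Sult1c2 fell from 301, 221 and 206 CPM in WT_normal to 136, 80.1, 117 and 116 in WT_UUO, a log2 change of -1.11 ± 0.20 (adjusted p = 0.000284), and with -1.30 ± 0.20 (adjusted p = 6.81e-05) under the transgenic label. Sult1b1, a thyroid hormone and phenol sulfotransferase, fell with a log2 change of -1.09 ± 0.26 (adjusted p = 0.00213) and -1.59 ± 0.26 (adjusted p = 0.000119). The phenol sulfotransferase Sult1a1 varied widely among normal libraries, at 75.4, 127 and 29.95 CPM in WT_normal and 66.4, 29.6 and 20.8 in SMOC2_normal. It fell with a log2 change of -1.64 ± 0.42 (adjusted p = 0.00401) in wild type, and its change of -1.02 under the transgenic label had an adjusted p of 0.0524. That change was -0.39 (adjusted p = 0.445) without SMOC2_normal replicate 1, and it was called with no filter on low counts (adjusted p = 0.0404) and with only the libraries compared (0.0376).

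The sulfotransferases that rose were rare in normal kidney. Sult4a1 (chr15:84076097-84105754, minus strand), an orphan sulfotransferase known from brain, had 1, 2 and 3 counts in the WT_normal libraries and 185, 268, 165 and 183 in WT_UUO. It had 1, 1 and 2 counts in SMOC2_normal and 322, 186, 162 and 155 in SMOC2_UUO. In CPM this is at most 0.117 in any normal library and between 5.73 and 10.02 in the obstructed ones. The share of its 50-base windows found in other genes was 0%. The ratio of summed counts per scaled library size was 81 (95% counting interval 37 to 221) in wild type and 99.5 (38.7 to 366) under the transgenic label, intervals that cover counting error only. The fitted changes of Sult4a1 were 6.26 ± 0.36 (adjusted p = 1.48e-08) and 6.52 ± 0.38 (adjusted p = 1.53e-08). No normal library reached 10 counts, so Sult4a1 was kept through its obstructed libraries alone and had to be higher there.

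Sult5a1 stood at 1.06, 1.29 and 1.25 CPM in WT_normal and 9.84, 6.63, 15.5 and 9.1 in WT_UUO, a rise of 3.10 ± 0.31 (adjusted p = 1.33e-06). It stood at 2.32, 2.44 and 2.29 CPM in SMOC2_normal and 4.73, 3.88, 7.85 and 5.11 in SMOC2_UUO, a rise of 1.2 ± 0.29 (adjusted p = 0.0025). The obstructed libraries were above the normal ones in both, and the SMOC2_normal libraries were above those of WT_normal. Sult2b1, which sulfates cholesterol and other hydroxysteroids, stood at 1.81, 1.51 and 2.18 CPM in WT_normal and 2.41, 3.4, 3.4 and 3.98 in WT_UUO. It rose by 0.84 ± 0.26 (adjusted p = 0.0134) and 1.21 ± 0.27 (adjusted p = 0.00129), and without WT_normal replicate 2 the wild-type rise was not called (adjusted p = 0.0571). Sult6b1 rose by 0.94 ± 0.38 (adjusted p = 0.0461) and 1.12 ± 0.41 (adjusted p = 0.0284) at levels of at most 1.45 CPM. The wild-type call of Sult6b1 was lost with DESeq2 (adjusted p = 0.0636), limma-voom (0.0756), no filter on low counts (0.0793) and only the libraries compared (0.067), and the other with limma-voom (0.0525).

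Among glutathione transferases, 17 of 23 fell in each comparison, and 3 rose in wild type and 4 under the transgenic label. Of all tested genes, 29.8% fell and 31.3% rose in wild type, and 30.4% fell and 32.5% rose under the transgenic label. The alpha class, cytosolic enzymes that also reduce lipid hydroperoxides, fell throughout: 4 of 4 genes in both comparisons, with median changes of -2.65 and -2.07. Gsta2 stood at 302, 335 and 421 CPM in WT_normal and 37.2, 51.8, 34.5 and 61.9 in WT_UUO, a change of -2.93 ± 0.37 (adjusted p = 1.1e-05). It stood at 231, 161 and 312 CPM in SMOC2_normal and 21.8, 63, 91.1 and 65.4 in SMOC2_UUO, a change of -1.96 ± 0.36 (adjusted p = 0.000305). Normal and obstructed libraries did not overlap, and SMOC2_UUO library 1 was the lowest of its group for both Gsta1 and Gsta2. Gsta1 fell with a log2 change of -3.15 and -2.28, but 90.5% of its 50-base windows occur in other genes and its transcript is 97.2% identical to that of Gsta2, so the pair may not be measured separately. Gsta3 fell from 106, 109.6 and 110.4 CPM in WT_normal to 16, 26.4, 13.6 and 27.7 in WT_UUO, a log2 change of -2.38 ± 0.27 (adjusted p = 3.27e-06). Gsta4, which conjugates the lipid peroxidation product hydroxynonenal, had the smallest change of the class in both comparisons, -1.26 ± 0.30 (adjusted p = 0.00205) and -0.78 ± 0.30 (adjusted p = 0.0348). The latter call was lost under upper-quartile scaling (adjusted p = 0.068).

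The mu class held the glutathione transferase with the highest CPM, Gstm1, at 629, 869 and 547 CPM in WT_normal and 294, 335, 282 and 279 in WT_UUO. It fell with a log2 change of -1.20 ± 0.15 (adjusted p = 8.19e-06) in wild type and -0.98 ± 0.15 (adjusted p = 4.62e-05) under the transgenic label. Gstm7 fell with a log2 change of -1.89 ± 0.21 (adjusted p = 2.81e-06) and -1.85 ± 0.21 (adjusted p = 3.16e-06). Gstm2, Gstm4 and Gstm5 fell in both comparisons, with changes between -0.93 and -0.54. Gstm6 stood apart from its class: it was at 3.62, 2.24 and 1.48 CPM in WT_normal and 4.42, 4.04, 3.22 and 2.01 in WT_UUO, with overlap and an adjusted p of 0.196. In SMOC2_normal and SMOC2_UUO Gstm6 went from 1.44, 1.33 and 1.77 CPM to 2.46, 2.18, 3.22 and 3.49, a rise of 0.90 ± 0.34 (adjusted p = 0.0304) that limma-voom did not call (adjusted p = 0.0647).

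Gstz1, which also acts as maleylacetoacetate isomerase in tyrosine breakdown, stood at 389, 430.4 and 394 CPM in WT_normal and 68.6, 106, 73.2 and 98.8 in WT_UUO. It fell with a log2 change of -2.22 ± 0.15 (adjusted p = 5.18e-08) and -2.26 ± 0.15 (adjusted p = 3.74e-08). Gstk1, the mitochondrial and peroxisomal kappa enzyme, stood at 85.9, 92.6 and 83.9 CPM in WT_normal and 16.4, 20.4, 17.4 and 21.8 in WT_UUO. It stood at 157, 149 and 180.3 CPM in SMOC2_normal and 15.8, 18.9, 27.1 and 20.3 in SMOC2_UUO. Gstk1 fell with a log2 change of -2.21 ± 0.15 (adjusted p = 5.15e-08) and -2.99 ± 0.15 (adjusted p = 8.21e-09), and the obstructed groups overlapped although the normal groups did not. The theta genes Gstt1, Gstt2 and Gstt3, enzymes with activity on small halogenated compounds, fell in both comparisons, with changes between -1.70 and -1.04. Gsto2, which reduces dehydroascorbate, fell with a log2 change of -1.04 ± 0.25 (adjusted p = 0.00238) and -1.62 ± 0.26 (adjusted p = 7.54e-05). Its paralogue Gsto1 stood at 88.6, 80.3 and 89.8 CPM in WT_normal and 107, 107, 93.4 and 79.7 in WT_UUO, with overlap and a change of 0.17 (95% interval -0.11 to 0.44). Gsto1 rose by 0.37 ± 0.13 (adjusted p = 0.0221) under the transgenic label, where the libraries also overlapped.

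The pi class moved in both directions. Gstp1, the main pi enzyme, fell from 45.6, 51.9 and 47.8 CPM in WT_normal to 27.3, 36, 34.8 and 30.1 in WT_UUO, a log2 change of -0.59 ± 0.11 (adjusted p = 0.000425). It fell from 70.1, 75.1 and 65.1 CPM in SMOC2_normal to 44.4, 43.5, 49.6 and 36.1 in SMOC2_UUO, a log2 change of -0.69 ± 0.11 (adjusted p = 0.000105). Gstp3 had 3, 1 and 1 counts in WT_normal and 10, 28, 13 and 16 in WT_UUO, and 0, 2 and 0 counts in SMOC2_normal and 23, 14, 22 and 22 in SMOC2_UUO. The ratio of summed counts per scaled library size was 8.13 (95% counting interval 3.32 to 25.8) in wild type and 19.5 (5.24 to 164) under the transgenic label, with adjusted p of 0.000835 and 0.000188. The fitted change of Gstp3 was 2.93 in wild type and 3.59 without WT_normal replicate 1. With the transgenic label it was 4.12, and 7.19 without SMOC2_normal replicate 3, which leaves only libraries with 0 counts in the normal group, so that value is no bound. Its highest level in any library was 0.942 CPM. No normal library reached 10 counts of Gstp3, so it was kept through obstructed libraries alone and had to be higher there.

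Microsomal glutathione transferases are membrane proteins outside the cytosolic family. Mgst1, which also has peroxidase activity, stood at 71.7, 66.2 and 70.5 CPM in WT_normal and 100.2, 88.5, 102 and 93.6 in WT_UUO. It stood at 59.3, 57.7 and 64.7 CPM in SMOC2_normal and 75, 78.2, 91.6 and 76.6 in SMOC2_UUO. The groups did not overlap, and Mgst1 rose by 0.47 ± 0.08 (adjusted p = 0.000221) and 0.41 ± 0.08 (adjusted p = 0.000645). Mgst3 fell with a log2 change of -1.23 ± 0.13 (adjusted p = 1.55e-06) and -1.36 ± 0.13 (adjusted p = 5.57e-07). Mgst2, which can make leukotriene C, had 8, 1 and 3 counts in WT_normal and 25, 13, 33 and 13 in WT_UUO. No normal library reached 10 counts, so Mgst2 too was kept through obstructed libraries alone. Its fitted change was 2.06 ± 0.55 (adjusted p = 0.00481) in wild type, and without WT_normal replicate 1 the change was 3.01 (adjusted p = 0.00168). Under the transgenic label the change of Mgst2 was 0.96 (95% interval -0.30 to 2.21), with overlapping libraries, and without SMOC2_normal replicate 3 it was 1.79 (adjusted p = 0.0456).

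Ranked by mean CPM per kilobase of unshared exon, Ugt1a2 (755 ± 153), Gstm1 (463 ± 114) and Ugt3a2 (423 ± 16.8) led in WT_normal (SD, n = 3), followed by Gsta2 (299.7 ± 52.2) and Sult1d1 (192 ± 22.7). Gstm1 and Ugt3a2 did not differ beyond their spread. In WT_UUO, Gstm1 led at 202 ± 17.3 CPM per kilobase (n = 4), ahead of Gstm5 (72.5 ± 5.32), Mgst3 (61.5 ± 8.72), Sult1c2 (60.8 ± 12.7) and Ugt3a2 (51.2 ± 32.6). In that order Gstm5 and Mgst3, Mgst3 and Sult1c2, and Sult1c2 and Ugt3a2 lay within the sum of their SDs. By whole exon length Ugt1a2 ranked 3 in WT_normal, after Gstm1 and Ugt3a2.

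Under the count minimum were 20 genes, of which 10 had no count in any library. By counting error alone, this allows up to 3 counts in a gene's total. The bound does not hold for Ugt2a1 and Ugt2a2, of whose exon length only 1.17% and 5.51% is unshared. Their 0 counts depend on how shared reads were assigned. The 20 included 8 Sult2a genes, hydroxysteroid and bile acid sulfotransferases known from liver, of which 5 had no count. The highest count of any of the 20 genes in a library was 13, in Sult2a3.

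Comparisons between the genotype labels gave no call among the 47 genes with edgeR. In normal kidney 0 were called, beside 0.0279% of all tested genes. Of the 47, 8 had an unadjusted p under 0.05, beside 12.8% of all tested genes. The lowest adjusted p belonged to Gstk1, whose SMOC2_normal libraries all exceeded the WT_normal ones, by 0.89 ± 0.16 (adjusted p = 0.0921). DESeq2 (adjusted p = 0.000279) and limma-voom (adjusted p = 0.0404) called it. Gstp1 differed by 0.53 ± 0.12 (adjusted p = 0.17), again without overlap, and was called by DESeq2 (adjusted p = 0.00902). In obstructed kidney edgeR called 0, beside 0.831% of all tested genes. Of the 47, 7 had an unadjusted p under 0.05, beside 15.2% of all tested genes. Gstp1 had the lowest adjusted p there, all SMOC2_UUO libraries being above all WT_UUO libraries, by 0.44 ± 0.11 (adjusted p = 0.0701). It was called by DESeq2 (adjusted p = 0.00609) and, with edgeR, without SMOC2_UUO replicate 4 (adjusted p = 0.0375). DESeq2 also called Sult5a1 lower (adjusted p = 0.0185).

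The interaction tests whether the change with obstruction differed between the labels. It was called for 0 of the 47 genes by edgeR and for 0% of all tested genes. Of the 47, 2 had an unadjusted p under 0.05, beside 6.44% of all tested genes. For Sult5a1 the change under the transgenic label minus that in wild type was -1.90 (95% interval -2.79 to -1.01, adjusted p = 0.483). DESeq2 gave it an adjusted p of 0.0268. For Gstk1 the difference was -0.78 (-1.23 to -0.33, adjusted p = 0.57). The genotype and interaction comparisons share libraries with the obstruction comparisons.

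Genes that supply, process or export conjugates, and known regulators, were read from further lists, some of which share genes. Among others, Ggt1, Gclm and Slc7a11 stand in more than 1 list. Hnf4a and some genes of the mercapturate pathway list below are also proximal tubule markers, so these results are not separate from those of the markers. Values of single genes in these lists are wild-type log2 changes. The counts stand beside the same background of 29.8% lower and 31.3% higher in wild type, and 30.4% and 32.5% under the transgenic label. Of 13 genes of glutathione synthesis, recycling and breakdown, 9 fell and 2 rose in wild type (median -1.43), and 9 fell and 2 rose under the transgenic label (median -0.90). Ggt1, which starts glutathione breakdown at the brush border, fell with a log2 change of -2.49 (adjusted p = 6.17e-07), and the synthesis genes Gclm and Gss with -1.50 (adjusted p = 2.96e-06) and -1.43 (adjusted p = 6.84e-06). The cystine importer Slc7a11 rose by 2.87 (adjusted p = 0.000114) and Ggt5 by 1.16 (adjusted p = 0.000717). Of 13 genes of the mercapturate pathway, which turns glutathione conjugates into excreted acetylcysteine forms, 12 fell and 1 rose in wild type (median -2.48), and 12 fell and 1 rose under the transgenic label (median -2.45). Dpep1, a brush border dipeptidase, fell with a log2 change of -2.56 (adjusted p = 1.98e-07) and Anpep with -1.88 (adjusted p = 7.7e-07), while Dpep2 rose by 4.53 (adjusted p = 1.09e-07).

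Of 9 genes of UDP-glucuronate supply and deconjugation, 6 fell and 2 rose in wild type (median -0.86), and 5 fell and 2 rose under the transgenic label (median -0.96). Ugp2, which makes UDP-glucose, fell with a log2 change of -1.41 (adjusted p = 1.44e-07) and the UDP-glucuronate carrier gene Slc35d1 with -1.26 (adjusted p = 3.74e-06). Gusb, the lysosomal glucuronidase, rose by 0.95 (adjusted p = 9.18e-06). Of 12 tested genes of PAPS supply and desulfation, 6 fell and 1 rose in wild type (median -0.37), and 6 fell and 2 rose under the transgenic label (median -0.37). The PAPS synthases Papss1 and Papss2 fell with a log2 change of -0.98 (adjusted p = 1.04e-07) and -2.75 (adjusted p = 1.09e-07), and the arylsulfatase gene Arsa rose by 0.59 (adjusted p = 3.86e-05). Of 14 conjugate efflux transporters, 9 fell and 2 rose in wild type (median -1.56), and 9 fell and 2 rose under the transgenic label (median -1.68). Abcc3 fell with a log2 change of -2.29 (adjusted p = 2.96e-07) and Abcg2 with -1.60 (adjusted p = 1.03e-06), and Abcc5 rose by 0.48 (adjusted p = 0.000559).

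Of 24 tested genes of other conjugating enzymes, 12 fell and 3 rose in wild type (median -0.75), and 11 fell and 5 rose under the transgenic label (median -0.50). Acsm1, an acyl-CoA synthetase, fell with a log2 change of -3.14 (adjusted p = 2.63e-07), and the methyltransferase gene Nnmt rose by 3.18 (adjusted p = 7.62e-06). NRF2 is the factor that activates many glutathione genes under electrophile stress. Of 24 of its regulators and targets, 12 fell and 7 rose in wild type (median -0.29), and 13 fell and 6 rose under the transgenic label (median -0.43). Of all tested genes, 29.8% fell and 31.3% rose in wild type, and 30.4% and 32.5% under the transgenic label. The list holds regulators beside targets and was not tested against these shares, and NRF2 activity was not tested. Nqo1, a quinone reductase, fell with a log2 change of -1.99 (adjusted p = 4.58e-06) and Me1 with -1.67 (adjusted p = 1.55e-06), while Akr1b8 rose by 3.49 (adjusted p = 1.72e-07) and Maff by 3.15 (adjusted p = 1.39e-08). Of 16 tested receptors and factors that act on conjugation genes, 11 fell and 2 rose in wild type (median -0.81), and 9 fell and 2 rose under the transgenic label (median -0.78). Hnf4a fell with a log2 change of -1.98 (adjusted p = 1.31e-06), and Cebpb rose by 1.93 (adjusted p = 9.19e-05).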

How the data were processed

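Counts per gene, which the authors deposited in 1 file per library, were used as deposited. Per the labels, libraries were made with a TruSeq stranded mRNA kit. STAR 2.4.1d, the build mm10 and featureCounts 1.4.4 (Subread) are listed in the submitters' processing notes; the sources used here do not give strand and overlap settings. Of 47729 gene IDs, 47310 matched GENCODE M21, which gave symbols, gene types and coordinates; the other 419 held 0.0288% of counts. In all, 8 pseudogenes with a matching symbol were left out.

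Counts were fitted with edgeR 4.0.16 (limma 3.58.1, R 4.3.3): filterByExpr kept 17926 genes, TMM scaling, 1 quasi-likelihood fit over the 4 groups and Benjamini-Hochberg adjustment over all genes, giving 5 comparisons. The fit was tested on simulated data. Total counts of 19483994 to 30033405 per library set the precision of low genes. Every member may be named; of each pathway list, up to 4 called genes of smallest wild-type p and up to 2 in the opposite direction. Of the receptors and factors 1 item is not reported here, nor are counts of motifs over the members. Members and lists were chosen with earlier results of these data known. Alternatives were RLE and upper-quartile scaling, no filter, a minimum of 50 counts in 3 libraries, DESeq2 1.42.0, limma-voom, a replicate block, only the libraries compared, whole exon length, and leaving out each library. Upstream sequences and identities were computed in Python 3.11.15 with Biopython 1.88, and figures drawn with matplotlib 3.10.9.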

Additional observations from a re-analysis of the deposited data

Results flagged for a closer look

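Ugt1a1 stood at 0.672 CPM in SMOC2_UUO library 3 and between 0.475 and 0.498 in the other 3 libraries of its group, a gap of 0.885 of the group's range, above Dixon's 95% critical value for 4 samples. It was the 1 such value among 94 gene and group combinations tested, and chance marks about 5% of groups.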

How the results depend on the processing

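With another scaling, filter, tool, sample set or replicate block, wild-type obstruction gave 6 to 9 genes higher and 30 lower, and the transgenic label 8 to 10 higher and 27 to 29 lower. Leaving out each library in turn gave 7 to 10 higher and 29 to 30 lower in wild type, and 7 to 10 higher and 26 to 29 lower under the transgenic label. Wild-type calls lost on leaving out a library were Gstm2 without WT_normal replicate 2; Ugt1a8 without WT_normal replicate 1 or WT_normal replicate 3 or WT_UUO replicate 2; Sult2b1 without WT_normal replicate 2; Sult6b1 without WT_normal replicate 1 or WT_normal replicate 2 or WT_normal replicate 3 or WT_UUO replicate 1 or WT_UUO replicate 3 or SMOC2_normal replicate 1 or SMOC2_UUO replicate 1 or SMOC2_UUO replicate 3. Under the transgenic label they were Gsta4 without SMOC2_normal replicate 4 or SMOC2_UUO replicate 1 or SMOC2_UUO replicate 4; Gstm2 without SMOC2_normal replicate 3; Gstm6 without SMOC2_normal replicate 1 or SMOC2_normal replicate 3 or SMOC2_UUO replicate 3 or SMOC2_UUO replicate 4; Gsto1 without SMOC2_normal replicate 1 or SMOC2_normal replicate 4 or SMOC2_UUO replicate 2 or SMOC2_UUO replicate 3; Gstt1 without SMOC2_normal replicate 4; Ugt1a10 without SMOC2_normal replicate 4; Sult6b1 without SMOC2_normal replicate 1 or SMOC2_normal replicate 3 or SMOC2_UUO replicate 4. Calls gained were Gstm6 without WT_normal replicate 1; Sult6b2 without WT_UUO replicate 4 in wild type, and Mgst2 without SMOC2_normal replicate 3; Ugt1a6b without SMOC2_normal replicate 3; Ugt1a8 without SMOC2_normal replicate 3; Sult1a1 without WT_normal replicate 2 or WT_normal replicate 3 or SMOC2_normal replicate 4 or SMOC2_UUO replicate 4 under the transgenic label. The replicate block gave 8 higher and 30 lower in wild type, 10 and 28 under the transgenic label, and 0 in the genotype and interaction comparisons. It ended the wild-type call of Sult6b1 (adjusted p = 0.0967) and no other call of a gene in the obstruction comparisons. Deviations from the group mean correlated between -0.0996 and 0.132 over same-numbered libraries, and between -0.0898 and 0.0709 within a genotype label. The labels do not say what a replicate number marks, and these values cannot settle whether libraries were paired. The 0 genes higher with the transgenic label in normal kidney became 2 with DESeq2 and 1 with limma-voom, with no filter or with only the libraries compared, and 0 to 1 leaving out a library (SMOC2_UUO replicate 3). In obstructed kidney 0 higher became 1 with DESeq2 and 0 to 1 leaving out a library (SMOC2_UUO replicate 4), and 0 lower became 1 with DESeq2, as did 0 lower in the interaction (1). Changes that turned in sign were all uncalled, and the cause was not tested. In wild type, Gstp2 went from -0.10 to 0.0158 with upper-quartile scaling and -0.45 to 0.19 leaving out a library. Under the transgenic label, Ugt2a3 went from -0.03 to 0.0831 with upper-quartile scaling, 0.000103 with no filter, 0.42 with limma-voom and -0.64 to 0.54 leaving out a library. Ugt2b38 ranged over -0.51 to 0.29 leaving out a library, and Sult6b2 over -0.0775 to 0.38, with -0.0859 under the replicate block. Upper-quartile scaling moved the median of all genes to 0.16 in wild type and 0.15 under the transgenic label, and the summed CPM of WT_normal to 5740. By whole exon length the summed CPM per kilobase was 2892 in WT_normal instead of 3446, and 2738 in SMOC2_normal instead of 3218. Low counts limit Gstp2, Gstp3, Mgst2, Ugt2a3 and Sult6b2. Shared sequence limits the UGT1A genes, Gsta1, Gstp2, Ugt2a1, Ugt2a2 and the UGT2B paralogues.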
